A study of Mus musculus with 14 samples.

Results

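The genes described here carry the symbols of nuclear subunits of the 5 oxidative phosphorylation complexes. They were measured in microglia sorted from mouse cerebral cortex after ischemic stroke. They were taken by symbol: Nduf genes of the a, b, c, s and v series for complex I, Sdha to Sdhd for complex II, Uqcr genes for complex III, Cox4 to Cox8 genes for complex IV and Atp5 genes for complex V. The rule found 81 of the 14084 genes in the table, 37 in complex I, 4 in complex II, 8 in complex III, 15 in complex IV and 17 in complex V. Membership rests on the symbol alone, so complex V includes Atp5sl, whose current symbol is Dmac2. All 81 passed the filter on low counts, which left 13861 genes.

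The mice were C57BL/6, aged 8-10 weeks. In the stroke groups the distal middle cerebral artery was tied off for good and both common carotid arteries were closed for 7 min, and cells were sorted on day 1, 3, 7, 21, 60 or 90. Sham animals received lesions of the skull surface, and the time at which they were sampled is not given in the sources used here. Each of the 7 groups has 2 libraries, numbered replicate 1 and replicate 2, and the labels do not state whether they come from different animals. The p-values therefore reflect only how far these libraries differ, and that spread may be technical.

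Oxidative phosphorylation takes place in the inner mitochondrial membrane. Complex I (NADH dehydrogenase) and complex II (succinate dehydrogenase) pass electrons to ubiquinone, complex III passes them to cytochrome c and complex IV (cytochrome c oxidase) to oxygen, and complex V (ATP synthase) uses the proton gradient that complexes I, III and IV build. Microglia in the healthy brain rely largely on this pathway, and inflammatory stimuli are known to move them toward glycolysis. Complex II is encoded by nuclear genes alone, while the other complexes also hold subunits encoded in mitochondrial DNA, which are not analysed here.

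Total counts were 15254983 to 28758420 in the replicate 1 libraries and 100625099 to 191692779 in the replicate 2 libraries. All 10 microglia markers were in the table, and none was at 0 in any library. Gene levels are given below as CPM, counts relative to the library total after TMM scaling, and sums over marker lists as CPM without that scaling, the lower library of a group first. The summed level of the microglia markers was 1463 and 2523 in sham, 2533 and 4194 on day 1, 3741 and 15619 on day 3, 7500 and 12339 on day 7, 7004 and 26121 on day 21, 3556 and 4461 on day 60 and 6129 and 7584 on day 90. Neutrophil markers, 11 of 12 in the table and none at 0 in any library, summed to 22302 and 33143 CPM in sham, 1284 and 7472 on day 1, 924 and 3855 on day 3, 373 and 955 on day 7, 930 and 7836 on day 21, 883 and 964 on day 60 and 3706 and 4061 on day 90. The sham libraries therefore held more neutrophil than microglia marker RNA, and every comparison against sham below carries that difference. Other markers differed too. Erythroid markers, 2 of 6 in the table, summed to 198 and 206 CPM in sham and to 0 to 4.41 in the stroke libraries. Classical monocyte markers summed to 4515 and 11486 CPM in sham, 1202 and 7732 on day 1 and 435 and 1147 on day 7. B cell markers summed to 122 and 142 CPM in sham, 7.46 and 17.3 on day 1 and 265 and 287 on day 90. The part of these differences in the results was not tested. In sorted bulk samples, fewer cells of a type and less RNA per cell cannot be told apart.

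Of the 81 genes, 65 have an entry in the RefSeq promoter table (build GRCm38.p6), which gives 250 bases before to 50 after the start of transcription. The core motif of NRF1, a regulator of many respiratory genes, was searched as GCGCANGC on both strands and stood in 22 of the 65 promoters (33.8%), against 18.9% of the 10622 promoters of genes in the table. The ETS motif CCGGAAG was in 23.1% (table genes 16.6%), the YY1 motif AAGATGGCG in 10.8% (2.91%), the ERR motif TCAAGGTCA in 3.08% (0.245%) and the TATA box TATAAA in 7.69% (7.69%). Such matches are descriptions of the letters in this window. The promoters of 4 genes are shown, with matches on either strand in capitals. They belong to Atp5l and Ndufa3, the subunit genes called lower on day 90, to Cox6a1, the widely expressed partner of the most changed gene Cox6a2, and to Sdhd of complex II, whose log2 fold changes ran from -0.73 to 0.37. Atp5l lies on the minus strand (chr9:44920693-44920992) and its promoter holds NRF1, ETS and TATA letters, Ndufa3 on the plus strand (chr7:3617123-3617422) with TATA letters, Cox6a1 on the minus strand (chr5:115348909-115349208) with NRF1 and ETS letters, and Sdhd on the minus strand (chr9:50603800-50604099) with NRF1, ETS and ERR letters.
Atp5l: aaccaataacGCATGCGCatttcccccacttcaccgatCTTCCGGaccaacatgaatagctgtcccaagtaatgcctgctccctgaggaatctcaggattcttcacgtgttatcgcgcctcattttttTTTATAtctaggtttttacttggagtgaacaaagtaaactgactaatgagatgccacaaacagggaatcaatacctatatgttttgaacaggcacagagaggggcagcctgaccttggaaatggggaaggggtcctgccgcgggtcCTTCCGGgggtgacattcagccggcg
Ndufa3: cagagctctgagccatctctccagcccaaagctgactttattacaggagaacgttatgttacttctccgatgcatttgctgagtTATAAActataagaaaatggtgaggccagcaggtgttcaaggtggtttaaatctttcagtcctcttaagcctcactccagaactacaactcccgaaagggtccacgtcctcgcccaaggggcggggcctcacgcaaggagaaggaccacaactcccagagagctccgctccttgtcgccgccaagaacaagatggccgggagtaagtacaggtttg
Cox6a1: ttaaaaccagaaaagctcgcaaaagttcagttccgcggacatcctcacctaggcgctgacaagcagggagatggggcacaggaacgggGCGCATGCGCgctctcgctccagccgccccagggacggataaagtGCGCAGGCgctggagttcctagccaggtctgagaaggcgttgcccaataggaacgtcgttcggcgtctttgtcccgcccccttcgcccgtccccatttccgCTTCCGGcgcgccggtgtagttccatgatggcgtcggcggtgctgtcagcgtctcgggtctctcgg
Sdhd: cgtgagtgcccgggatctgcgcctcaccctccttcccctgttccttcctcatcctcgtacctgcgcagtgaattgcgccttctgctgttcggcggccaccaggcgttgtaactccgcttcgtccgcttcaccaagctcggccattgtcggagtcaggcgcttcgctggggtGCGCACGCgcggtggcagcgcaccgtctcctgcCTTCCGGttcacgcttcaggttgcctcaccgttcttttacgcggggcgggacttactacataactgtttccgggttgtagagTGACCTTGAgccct

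The levels of the subunit genes varied together from library to library. Over the 14 libraries, the median correlation of a subunit gene with the mean of the other subunit genes was 0.903 (Pearson's r of log2 CPM). It exceeded 0.8 for 58 of the 81 genes, against 4.09% of all other genes measured against the same mean, whose median r was -0.05. These correlations describe 14 libraries, 7 shallow ones of replicate 1 and 7 deep ones of replicate 2. Between complexes, the median r of gene pairs was 0.814 for complexes I and III, 0.784 for I and IV and 0.766 for I and V, and 0.50 for I and II.

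The libraries with high levels did not line up with the groups. Relative to each gene's own mean, the median subunit gene stood at -0.63 and 0.70 on the log2 scale in sham replicates 1 and 2, 1.10 and -0.07 on day 1, 1.48 and -0.03 on day 3, -0.41 and 0.28 on day 7, -1.0 and -0.58 on day 21, -0.00042 and 0.88 on day 60, and -1.03 and -0.59 on day 90. Replicate 1 was thus the higher library on days 1 and 3 and replicate 2 in every other group. In sham 79 of the 81 genes were higher in replicate 2, while on day 1 only 5 were and on day 3 only 9. Days 21 and 90 were the groups in which both libraries lay below the mean.

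**Figure D1:**
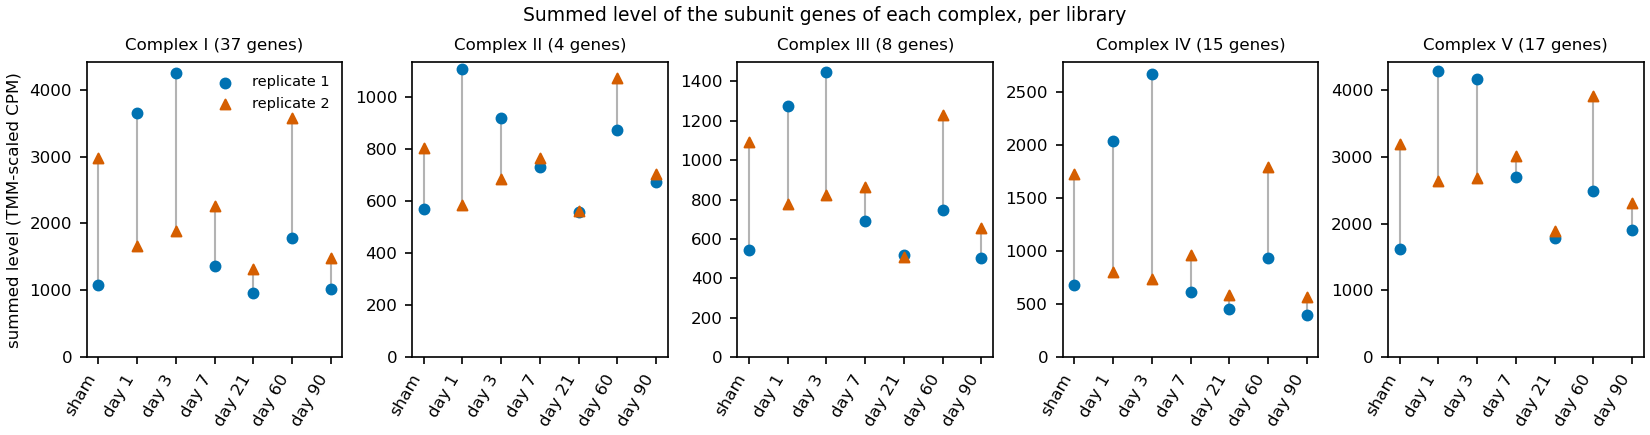
Summed level of the subunit genes of each complex in TMM-scaled CPM (vertical axes from 0), for sham and 6 times after stroke on the horizontal axes. Circles are replicate 1 libraries, triangles replicate 2, joined by a line. Complex IV spans 402 to 2672 CPM and complex II 557 to 1106 CPM. The points of sham, day 1 and day 3 lie farther apart than those of days 21 and 90 in all 5 complexes.

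**Figure D2:**
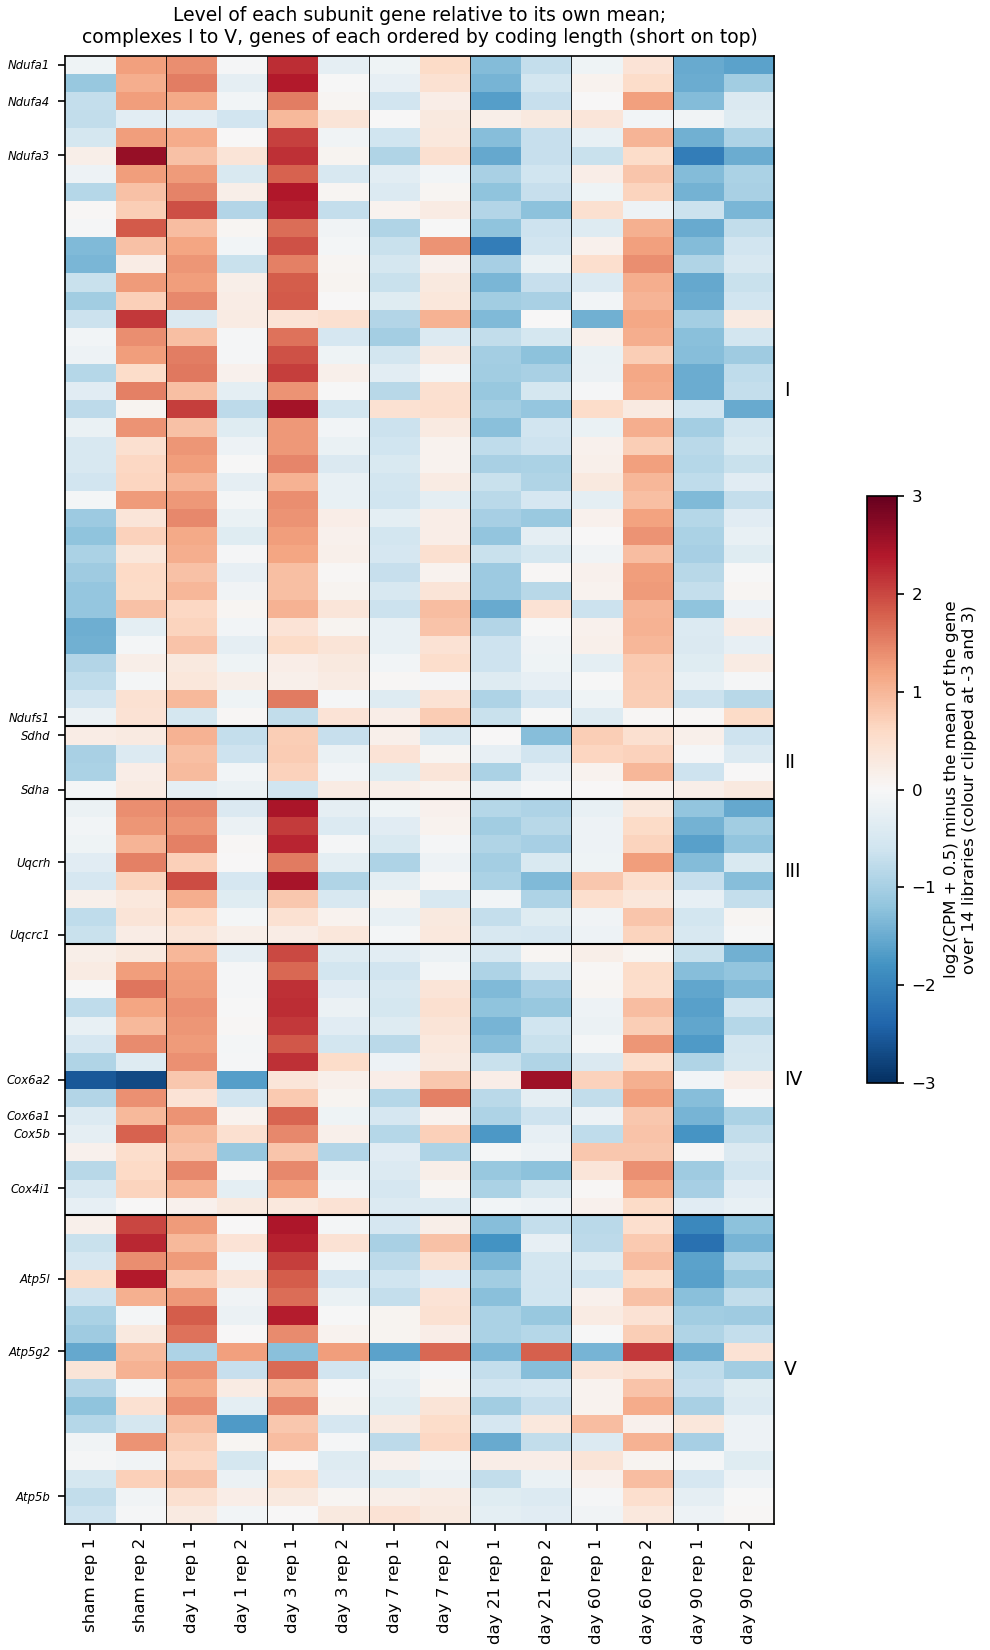
Each row is 1 of the 81 subunit genes, grouped by complex and ordered within it by coding length, and each column is 1 of the 14 libraries; 15 genes described in the text are labelled. Colour is log2(CPM + 0.5) minus the gene's mean over the libraries, red above and blue below, clipped at -3 and 3. Most rows share a pattern, red in sham replicate 2, day 1 replicate 1, day 3 replicate 1 and day 60 replicate 2, and Cox6a2 and Atp5g2 stand out from it.

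Against sham, 1 subunit gene was called at each of days 1, 3, 7, 21 and 60, and 3 on day 90 (edgeR's quasi-likelihood test, Benjamini-Hochberg adjusted p under 0.05 over all genes tested). That is at most 3 of 81, where 4.55% of all genes were called on day 1, 8.28% on day 3, 12.6% on day 7, 6.44% on day 21, 7.85% on day 60 and 7.86% on day 90. Cox6a2 was the gene called at every time and was higher, and Ndufa3 and Atp5l were lower on day 90. DESeq2 called 1, 2, 2, 7, 1 and 16 subunit genes at the same times, where it called 13.5%, 19.2%, 22.8%, 17.7%, 19.1% and 18.9% of all genes. Of its 16 on day 90, 15 were lower, among them Atp5e, Atp5k, Ndufa1, Ndufa7, Cox6c, Cox8a, Uqcr10 and Uqcrq. These 6 comparisons share the sham libraries.

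Cox6a2, the complex IV subunit VIa isoform known from heart and skeletal muscle, had 1 and 0 counts in the sham libraries. It had 92 and 80 counts on day 1, 57 and 543 on day 3, 67 and 637 on day 7, 75 and 2290 on day 21, 126 and 790 on day 60 and 94 and 650 on day 90, in replicates 1 and 2. Every stroke library lay above both sham libraries, and the 14 levels ran from 0 to 18.6 CPM. With 1 count in the whole sham group, the ratio of summed counts per total count to sham was 121 on day 1 (exact 95% interval for counting error only, 21.4 to 4799), 418 on day 3 (74.7 to 16539), 535 on day 7 (95.6 to 21145), 2053 on day 21 (368 to 81130), 501 on day 60 (89.8 to 19822) and 391 on day 90 (70.0 to 15468). The adjusted p in edgeR was 0.0266 on day 1, 0.0177 on day 3, 0.0121 on day 7, 0.0106 on day 21, 0.0138 on day 60 and 0.0200 on day 90. The call was also lost without sham replicate 1 on days 1, 60 and 90, without day 1 replicate 1 on day 1, without day 60 replicate 2 on day 60 and without either day 90 library on day 90, and limma-voom made it on days 7, 21 and 60 only. Without sham replicate 2 Cox6a2 was called at 0 of the 6 times, and the sham library that remains has 15254983 counts in all.

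Even at its highest Cox6a2 was the minor isoform. Per kb of transcript its mean level was 6.32 CPM against 268 for Cox6a1, the isoform of most tissues, and its share of the pair ran from 0% to 16.1%. Muscle RNA was low throughout: of 4 markers 2 were in the table, Ckm and Tnnt3, and they summed to 1.08 and 5.77 CPM in sham, 0.685 and 1.00 on day 1, 0.527 and 0.735 on day 3, 0.216 and 0.324 on day 7, 0 and 0.472 on day 21, 0.0718 and 0.386 on day 60 and 0.139 and 0.261 on day 90. Ckm was at 0 in 3 libraries and Tnnt3 in 2, and the part of muscle RNA in the Cox6a2 counts was not tested. By RefSeq annotation Cox6a2 overlaps 70 bases of Itgad, an integrin gene of myeloid cells, and since the strand setting of the counting is not given, reads there cannot be told apart. Itgad had 5 and 1727 counts in sham, 2 and 18524 on day 1, 4 and 26450 on day 3, 6 and 24059 on day 7, 9 and 91665 on day 21, 8 and 13855 on day 60 and 5 and 79487 on day 90. Itgad was thus split by replicate number, with 2 to 9 counts in replicate 1 and 1727 to 91665 in replicate 2. In the replicate 1 libraries Cox6a2 had more counts than Itgad at all 6 times, and in replicate 2 both were highest on day 21. The part of Itgad reads in the Cox6a2 counts was not tested.

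Ndufa3, a small accessory subunit of complex I, was at 25.0 and 137 CPM in sham, 40.8 and 28.9 on day 1, 102 and 23.4 on day 3, 11.6 and 31.0 on day 7, 7.33 and 13.6 on day 21, 13.6 and 32.4 on day 60 and 4.82 and 7.60 on day 90. Both libraries of days 21 and 90 lay below both sham libraries. The log2 fold change on day 90 was -3.70 ± 0.94 (SE, n = 2 per group, adjusted p = 0.0353 in edgeR), and on day 21 it was -2.95 ± 0.91 (adjusted p = 0.0731).

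Atp5l, subunit g of the membrane part of ATP synthase, was at 6.37 and 23.4 CPM in sham, 7.38 and 5.38 on day 1, 15.6 and 2.76 on day 3, 2.52 and 3.13 on day 7, 1.74 and 2.60 on day 21, 2.52 and 6.25 on day 60 and 0.991 and 1.58 on day 90. From day 7 on, every library lay below both sham libraries. On day 90 the log2 fold change was -3.53 ± 0.92 (SE, adjusted p = 0.0391 in edgeR). Without sham replicate 2 it was -2.30 (adjusted p = 0.217) and that of Ndufa3 -2.01 (adjusted p = 0.231), and neither gene was called without either day 90 library. Atp5l also lost the call without sham replicate 1 or either library of day 7 or day 60 (adjusted p of 0.0532 to 0.0555 in edgeR). Of the 50-base words of Atp5l transcripts 84.8% also stand in other genes, including 12 pseudogenes, so its counts are uncertain, while Ndufa3 shares none.

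**Figure D3:**
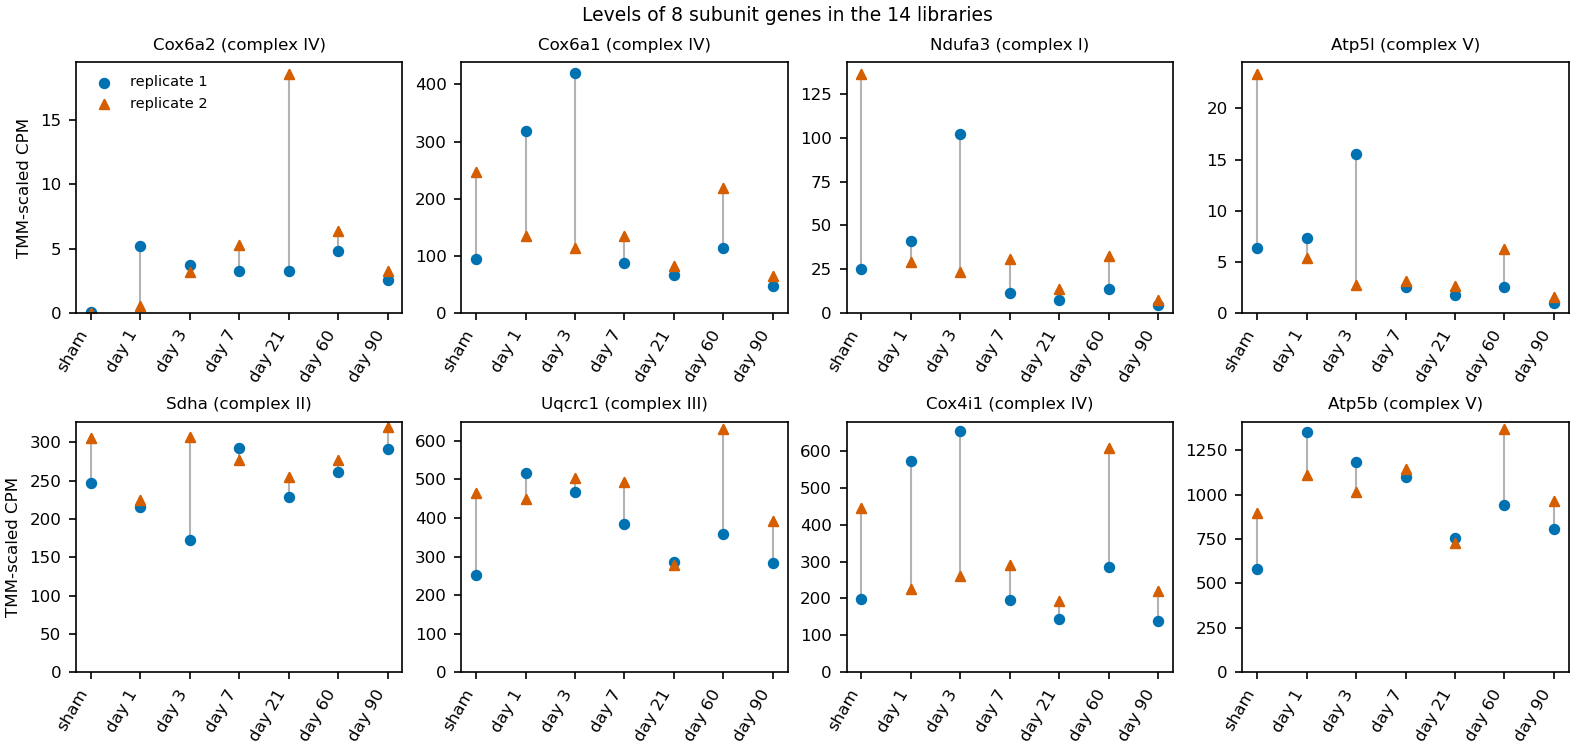
TMM-scaled CPM of 8 subunit genes in the 14 libraries, with the groups on the horizontal axis, circles for replicate 1 and triangles for replicate 2. Cox6a2 is lowest in the sham libraries, Ndufa3 and Atp5l are lowest on day 90, and Sdha stays between 172 and 320 CPM.

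Beyond these calls, most subunit genes had log2 fold changes above 0 on days 1, 3 and 60 and below 0 on days 7, 21 and 90. They were not tested as a group. Their median log2 fold change was 0.34 on day 1, 0.58 on day 3, -0.33 on day 7, -1.12 on day 21, 0.32 on day 60 and -1.09 on day 90, while the median of all genes was 0.04, 0.15, 0.06, 0.06, 0.14 and 0.11. On day 21, 71 of 81 were below 0 and both libraries lay below both sham libraries for 40 of 81, where this held for 24.1% of all genes. On day 90 the counts were 69 and 38 of 81 (all genes, 27.2%), and on day 7 they were 50 and 10 (27.6%). Both libraries lay above sham for 7 of 81 on day 1 (22.2%), 15 on day 3 (28.9%) and 17 on day 60 (33.9%), which are shares below those of all genes.

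The early excess rested on 1 replicate number. On day 1 the median difference from the sham library of the same number was 1.68 in replicate 1 and -0.95 in replicate 2, and on day 3 it was 2.05 and -0.88. The sign differed between the numbers for 71 of 81 genes on day 1 and for 64 of 81 on day 3. On day 21 both medians were below 0, at -0.36 and -1.57, and on day 90 they were -0.39 and -1.34. The low values of those days rested largely on sham replicate 2. Without it the complex medians on day 21 were -0.14 for complex I, 0.17 for II, -0.62 for III, -0.37 for IV and 0.09 for V, and on day 90 they were -0.12, 0.48, -0.55, -0.34 and -0.13, where all libraries together gave -1.09, 0.06, -1.46, -1.44 and -0.58 on day 90.

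A comparison without the sham libraries set days 60 and 90 against days 1 and 3. The log2 difference was below 0 for 75 of 81 subunit genes, with a median log2 difference of -0.84 (all genes, -0.02). None was called by edgeR or by limma-voom, where edgeR called 2.62% and limma-voom 5.10% of all genes. At an unadjusted p under 0.05 edgeR had 30 of 81 (all genes, 16.3%), and DESeq2 called 12, all lower (8.35%). Uqcrq, a small subunit of complex III, had the smallest adjusted p of the 81, at -1.82 ± 0.51 (adjusted p = 0.0926 in edgeR). The median difference was -1.86 within replicate 1 and 0.22 within replicate 2. Within replicate 2, days 60 and 90 went opposite ways. Relative to each gene's own mean, the median subunit gene stood there at -0.07 on day 1 and -0.03 on day 3 (log2 scale). It stood at 0.88 on day 60, above both early libraries, and at -0.59 on day 90, below both. Markers of other cells differed between the libraries of days 60 and 90 and those of days 1 and 3. B cell markers, 6 of 7 in the table, summed to 7.46 and 17.3 CPM on day 1, 9.37 and 21.6 on day 3, 158 and 165 on day 60 and 265 and 287 on day 90, and 5 of 6 were called higher by edgeR. Blk was at 0 in 3 of the 14 libraries and Pax5 in 6. T and NK cell markers, 8 of 9 in the table, summed to 3.77 and 9.30 CPM, 4.54 and 4.96, 60.7 and 72.4, and 105 and 119 at the same times, and 5 of 8 were called higher, with Cd3e at 0 in 2 libraries and Ncr1 in 1. Neutrophil markers had a median log2 difference of -1.67, where edgeR called 0 of 11, limma-voom 0 and DESeq2 6, and 7 had an unadjusted edgeR p under 0.05. Their part in the late difference was not tested. In the joint test among the 6 stroke times edgeR called 0 of 81 (0.866% of all genes), with 20 at an unadjusted p under 0.05 (12%), limma-voom 0 (1.31%) and DESeq2 10 (9.21%).

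On days 21 and 90 and late against early, short subunit genes lay lower than long ones. The 28 genes with transcripts under 600 bases had a median log2 fold change of -1.70 on day 90, and 0 of 28 were above 0. The 16 genes of at least 1500 bases had 0.15, with 9 of 16 above 0. On day 21 the medians were -1.60 and -0.15, and late against early they were -1.34 and -0.11. On day 7 they were -0.71 and 0.36, on day 60 -0.12 and 0.55, on day 1 0.10 and 0.51, and on day 3 0.61 and 0.54, so that short genes were not lower on day 3. Across the 81 genes, the correlation of log2 fold change with log2 coding length was 0.047 on day 1, -0.174 on day 3, 0.179 on day 7, 0.262 on day 21, 0.171 on day 60, 0.439 on day 90 and 0.684 late against early. Over the 13764 tested genes with a coding length it was -0.099, -0.023, 0.025, 0.088, -0.135, 0.063 and 0.033 in the same order. These are Pearson's r, and they include Cox6a2, at log2 fold changes of 7.60 to 9.55 against sham. With transcript length, Pearson's r for the 81 genes was 0.091, -0.064, 0.248, 0.296, 0.192, 0.449 and 0.591 in the same order. Spearman's rank correlation with transcript length was 0.272, -0.009, 0.485, 0.602, 0.393, 0.660 and 0.616. Over the 13812 tested genes with a transcript length, the rank correlation was -0.150, -0.079, 0.001, 0.091, -0.223, 0.045 and 0.042. These are correlations across genes, which are not independent replicates. Ndufb2 and Atp5g1 are counted as long through long isoforms but have coding lengths of 315 and 408 bases, and their late differences of -1.80 and -1.78 resembled those of short genes. These 2 genes are examples, and whether the differences follow coding or transcript length more closely was not tested.

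Genes outside the pathway were set beside them. For each library, the median of short minus long genes was taken for the subunit genes and for 200 short and 11109 long other genes. In sham the subunit genes gave 0.29 and 1.19 and the other genes -0.26 and 1.43, on day 3 they gave 1.63 and -0.15 against 1.37 and -0.35, and on day 90 -1.16 and -0.84 against -1.37 and -0.62. The sign was the same in 12 of the 14 libraries. In a fit that takes out each library's trend with length, chosen after seeing the data, the subunit median was -0.43 on day 21 and -0.57 on day 90, with that of all genes at -0.14 and -0.26. In the same fit the subunit median changed sign on day 7, from -0.33 to 0.19, and on day 60, from 0.32 to -0.10. On days 1 and 3 and late against early it was 0.27, 0.33 and -0.61. What sets the length trend was not tested.

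**Figure D4:**
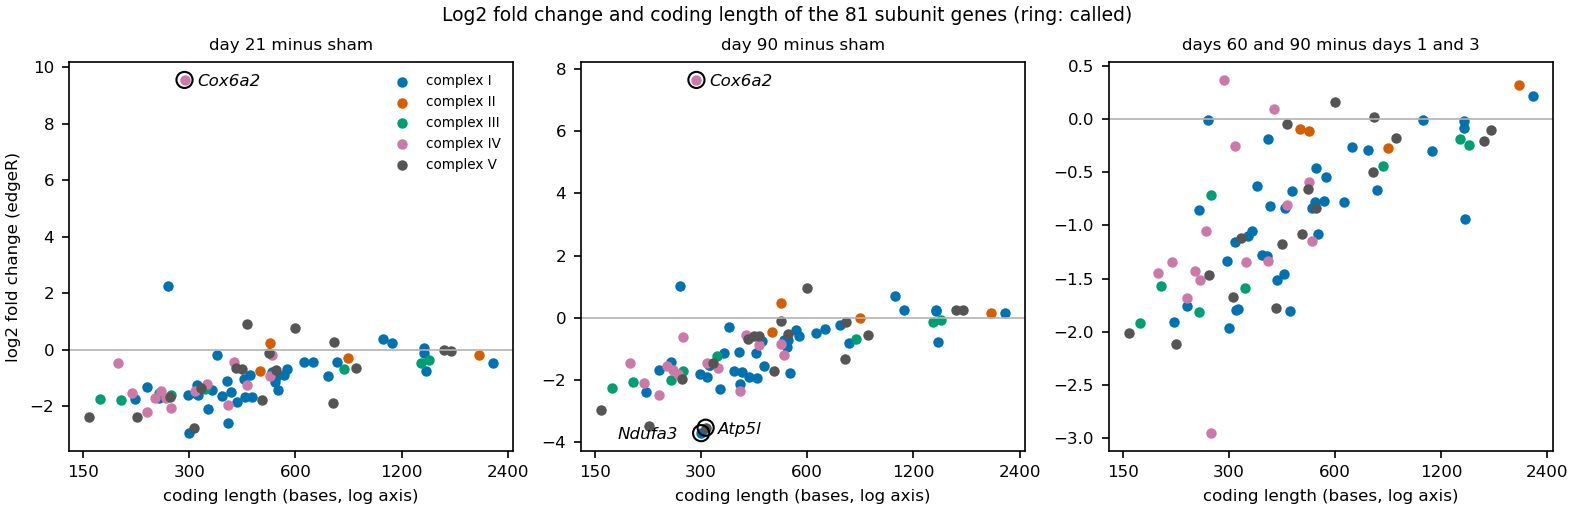
Log2 fold change from edgeR (vertical axis) against coding length in bases (horizontal log axis) for the 81 subunit genes, coloured by complex, for day 21 and day 90 against sham and for days 60 and 90 against days 1 and 3. Rings mark called genes. Short genes lie lowest and genes with the longest coding sequences lie near 0.

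In complex I, the catalytic core carries electrons from NADH through flavin and iron-sulfur clusters, and the a, b and c series are accessory subunits around it. On day 90 the log2 fold change of Ndufv1, the flavin-binding core subunit, was 0.25, that of the core subunits Ndufs1 and Ndufs8 0.16 and -0.47, and that of the core subunit Ndufs3, named after its values were seen, -0.81. Ndufs1, the largest, did not follow the other subunit genes (r = -0.16) and was higher in replicate 2 in all 7 groups. Of the accessory genes, Ndufa1 was at -2.38 on that day (adjusted p = 0.0857 in edgeR), Ndufc1 at -1.67, Ndufa4 at -1.41 and Ndufb8 at -0.39, and core and accessory genes were not tested against each other. Ndufa1 was at 14.2 and 36.9 CPM in sham, 41.3 and 15.1 on day 1, 73.5 and 12.7 on day 3, 14.1 and 23.3 on day 7, 5.93 and 9.29 on day 21, 14 and 20.9 on day 60 and 5.12 and 4.71 on day 90. Days 21 and 90 were its lowest groups and lay wholly below sham. Per kb of transcript Ndufa4, since reassigned to complex IV by structural work, was the highest of the Nduf genes at 142 CPM per kb, and its relative Ndufa4l2, a hypoxia-induced gene, the lowest at 0.397.

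Complex II genes, whose products also belong to the TCA cycle, had log2 fold changes against sham from -0.73 to 1.34. Their median log2 fold change was 0.48, 0.28, 0.17, -0.25, 0.63 and 0.06 at the 6 times and -0.10 late against early, and 0 of the 4 genes was called (edgeR, DESeq2 and limma-voom), with 1 at an unadjusted p under 0.05 in edgeR, on day 60. Sdha, the flavoprotein that oxidises succinate, was at 247 and 306 CPM in sham, 216 and 224 on day 1, 172 and 307 on day 3, 292 and 277 on day 7, 229 and 254 on day 21, 262 and 277 on day 60 and 292 and 320 on day 90. Against sham only day 1 did not overlap, and its highest level was 1.86 times its lowest, the smallest ratio of the 81 genes. Sdha ran against the other subunit genes (r = -0.40). Sdhb, the iron-sulfur subunit, was at 124 and 273 CPM in sham and 258 and 477 on day 60. For the membrane anchors Sdhc and Sdhd the day 60 log2 fold changes were 1.34 and 0.37 (adjusted p of Sdhc 0.131 in edgeR). The shortest complex II transcript, that of Sdhb, has 1142 bases.

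In complex III the small subunits lay lower than the large core proteins on day 90, and the 2 kinds were not tested against each other. On day 3 the log2 fold changes of the complex ran from 0.05 for Uqcrh to 1.43 for Uqcrb, which are both small subunits. Uqcrc1, a core protein and the highest of the complex at 249 CPM per kb, was at 251 and 466 CPM in sham, 517 and 449 on day 1, 467 and 503 on day 3, 384 and 494 on day 7, 286 and 278 on day 21, 360 and 631 on day 60 and 284 and 393 on day 90. Day 21 and day 90 lay between the sham libraries. On day 90 its log2 fold change was -0.08, that of the core protein Uqcrc2 -0.14 and that of the Rieske iron-sulfur protein Uqcrfs1 -0.69. The small subunits Uqcrq (-1.98), Uqcrh (-1.70) and Uqcrb (-1.21) lay lower. None of the 3 was called by edgeR, and DESeq2 called Uqcrq (adjusted p = 0.0318). For Uqcrb, 43.4% of its 50-base words stand in other genes, 4 of them pseudogenes.

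In complex IV, Cox4i1, the common isoform of subunit IV, was the highest of the complex at 419 CPM per kb. It was at 198 and 445 CPM in sham, 571 and 225 on day 1, 654 and 262 on day 3, 196 and 290 on day 7, 145 and 194 on day 21, 284 and 608 on day 60 and 139 and 219 on day 90. Only day 21 lay below both sham libraries. Day 90 log2 fold changes of the other common subunits were -0.86 for Cox5a, -2.35 for Cox5b, -1.60 for Cox6a1, -2.48 for Cox6c, -1.68 for Cox7a2 and -2.08 for Cox8a. None of these was called by edgeR, while DESeq2 called Cox5b, Cox6c and Cox8a (adjusted p of 0.0318, 0.00914 and 0.0156). Cox7a2l was at -0.56. The median of complex IV was 0.31, 0.64, -0.53, -1.45, -0.02 and -1.44 at the 6 times, and it was the same with genes of under 3 counts in a group set to that floor.

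Minor isoforms of complexes I and IV were scarce. Cox4i2, the hypoxia-responsive form of subunit IV, had 0.252 CPM per kb, Cox4i1 1665 times as much, and had 0 counts in both day 7 libraries, which allows up to 0.0197 CPM over that group. Cox7a1, the muscle form of subunit VIIa, was highest on day 3 with 3.75 and 0.865 CPM, had 57 and 149 counts there and 0 and 18 in sham, and had 2 and 0 on day 21. Its day 3 log2 fold change was 4.18 and was not called. Ndufa4l2 had 0 and 14 counts in sham and 17 and 102 on day 3, with a log2 fold change of 3.09 that was not called (adjusted p = 0.198 in edgeR). Of markers of mural cells, where Cox4i2 and Ndufa4l2 are abundant, 5 of 5 were in the table and summed to 3.32 and 3.54 CPM in sham, 1.17 and 1.65 on day 1, 3.49 and 10.3 on day 3, 2.92 and 4.55 on day 7, 9.50 and 31.3 on day 21, 3.77 and 1352 on day 60 and 9.94 and 1125 on day 90. Pdgfrb alone made 99.97% of the day 60 replicate 2 sum and 99.8% of the day 90 replicate 2 sum, and the other 4 markers summed to 0.435 and 1.76 CPM in those libraries. Rgs5 was at 0 in 3 libraries, Kcnj8 in 1, Abcc9 in 4 and Higd1b in 6. Their part in these levels was not tested.

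In complex V, the catalytic head is made of alpha (Atp5a1), beta (Atp5b) and gamma (Atp5c1) subunits. Atp5b had the highest level of all 81 genes, 520 CPM per kb, and was at 583 and 896 CPM in sham, 1355 and 1113 on day 1, 1182 and 1014 on day 3, 1096 and 1144 on day 7, 757 and 726 on day 21, 940 and 1372 on day 60 and 804 and 964 on day 90. The libraries of days 1, 3, 7 and 60 all lay above both sham libraries, but the log2 fold changes, at most 0.74, were not called. On day 90 Atp5a1 was at 0.24 and Atp5c1 at -0.54. The stalk subunits Atp5o and Atp5j were at -0.53 and -1.44, and the small head subunit Atp5e at -2.96 (adjusted p = 0.0588 in edgeR). Atp5e was at 44.1 and 161 CPM in sham, 95.8 and 40.0 on day 1, 213 and 37.7 on day 3, 27.6 and 44.3 on day 7, 16 and 23.8 on day 21, 22.3 and 56.5 on day 60 and 9.97 and 16.4 on day 90. Days 21 and 90 lay wholly below sham.

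Subunit c of the ATP synthase ring is encoded by Atp5g1, Atp5g2 and Atp5g3, which make the same mature protein. Atp5g3 was the highest, at 204 CPM per kb against 6.93 for Atp5g1 and 3.98 for Atp5g2. These values depend on the transcript length used, 2675.5 bases for Atp5g1, 718.5 for Atp5g3 and 586 for Atp5g2. Without length scaling, Atp5g3 ran from 58.3 to 381 CPM and Atp5g1 from 5.88 to 72.2. Atp5g1 was at 2.10 on the log2 scale on day 3 (adjusted p = 0.110 in edgeR), and DESeq2 called it (adjusted p = 0.0393). Atp5g2 was lower in replicate 1 in all 7 groups, between 0.0969 and 0.454 CPM there and between 1.97 and 7.39 in replicate 2. Ndufb4 was split the same way, 0 to 1.32 against 0.868 to 5.36 CPM, and 38.3% of the words of Atp5g2 and 37.0% of those of Ndufb4 stand in other genes.

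The extremes of each complex over the 6 times were these. By mean log2 fold change, Ndufa3 was lowest (-2.0) and Ndufa4l2 highest (1.78) in complex I, Sdhd (-0.18) and Sdhc (0.83) in complex II, Uqcrh (-0.88) and Uqcrc1 (0.20) in complex III, Cox5b (-1.11) and Cox6a2 in complex IV, and Atp5l (-2.07) and Atp5s (1.09) in complex V. Atp5s, a coupling factor, was also the lowest of complex V per kb, at 2.55. Sdhb (227) and Sdhc (42.7) were highest and lowest per kb in complex II, and Uqcrb (52.3) was lowest in complex III. Of the 81 genes, 17 have over 20% of their words in another gene. For 10 genes over 20% of the words stand in annotated pseudogenes, and the median level of these 10 was 17.4 CPM per kb against 82.8 for the other 71.

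Factors that build the complexes had lower correlations with the subunit genes. The 43 assembly genes measured had a median r of 0.560 with the subunit mean, genes of the tricarboxylic acid (TCA) cycle 0.468 and glycolytic genes 0.135. None of the 14 complex I, 2 complex II, 5 complex III or 4 complex V assembly genes was called by edgeR at any time. Of 18 complex IV assembly genes 2 were lower on day 90, the copper chaperone Cox17 (-3.25 ± 0.85, adjusted p = 0.0393 in edgeR) and Pet100 (-3.76 ± 0.93, adjusted p = 0.0327), where 7.86% of all genes were called. The median of these 18 was -0.45 on that day, and that of the complex I assembly genes was 0.62. Of 20 regulators of respiratory genes, 15 carriers and 6 subunits or carriers outside the symbol rule, such as Cyc1 and Cycs, 0 were called by edgeR. Over these 66 genes without a call, 0 to 16 per comparison had an unadjusted edgeR p under 0.05, and DESeq2 called 0 to 5 and limma-voom 0 to 1. The 16 were on day 7, where 4021 of all 13861 genes had such a p. DESeq2 called its 5 on days 7 and 60, where it called 22.8% and 19.1% of all genes. On the same days limma-voom called 1866 and 1208 of all genes.

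Few enzymes that feed the chain were called. Of 20 TCA cycle genes, the isocitrate dehydrogenase Idh2 was higher on day 3 (1.99 ± 0.48, adjusted p = 0.0262 in edgeR) and day 7 (1.77), and Idh3a on day 7 (1.41), which is 1 of 20 where 8.28% of all genes were called and 2 of 20 where 12.6% were. Among 20 glycolytic genes, Tpi1, triose phosphate isomerase, was higher on day 1 (2.15 ± 0.46, adjusted p = 0.0224 in edgeR) and day 3 (1.98), and Pfkfb3, which makes the activator of phosphofructokinase, on day 21 (2.04). The lactate exporter Slc16a3 was lower on day 7 (-3.28), day 60 (-3.34) and day 90 (-3.93), and Gpi1, glucose phosphate isomerase, on day 7 (-1.50) and day 60 (-1.83). That is 1 or 2 of the 20 glycolytic genes at each time, where 4.55% to 12.6% of all genes were called. Late against early, Pkm, pyruvate kinase (-1.62), Slc2a1, the glucose transporter GLUT1 (-1.83), and Slc16a3 (-2.71) were lower, with adjusted p of 0.0418, 0.0313 and 0.0432 in edgeR, 3 of 20 where 2.62% of all genes were called. The medians late against early were -1.06 for the glycolytic genes, -0.08 for the TCA cycle genes and -0.84 for the subunit genes, and these were not tested against each other.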

How the data were processed

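RNA of sorted microglia was measured in 14 libraries of 7 groups, taken from the sample titles. The authors deposited whole-number counts per gene. Bowtie2 2.3.4.2, HTSeq 0.6.1 and genome build mm9 are named in the submitters' processing notes, while annotation, strandedness and the treatment of reads with several alignments are not given in the sources used. The main test was edgeR 4.0.16 in R 4.3.3: TMM scaling, a filter by group that removed 223 genes, and 1 robust quasi-likelihood fit to all libraries with 7 residual degrees of freedom (common biological coefficient of variation 0.639). DESeq2 1.42.0 and limma 3.58.1 (voom) served as alternatives, with other scalings, no filter, a replicate block, thinned counts, left-out libraries and, added later, length-trend offsets. The log2 CPM used a prior count of 2. Lengths are medians of protein-coding GENCODE transcripts, coding lengths the longest per gene, matched by symbol for 14035 of 14084 genes. The edgeR test of day 90 against sham was checked on simulated data, and the other tests were not.

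The members, lists and rules were chosen with earlier results of these data known. Named are a fixed panel of subunit genes (1 of which is not reported here), the called ones, the extremes of each complex in level and in mean log2 fold change, and up to 3 called genes of each related list per comparison.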

Additional observations from a re-analysis of the deposited data

How the results depend on the processing

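Intervals and floors cover counting error only. With DESeq2 the number of subunit genes called was 2 on day 3, 2 on day 7, 7 on day 21, 16 on day 90, 12 late against early and 10 among stroke times. With limma-voom it was 0 on days 1 and 3, where it called 547 and 1284 of all 13861 genes. With replicate 2 thinned to the depth of replicate 1 it was 2 on day 3. With length-trend offsets it was 3 on day 21, 6 on day 90 and 1, Ndufa3, late against early. Shares of all genes called with thinning, length-trend offsets, a replicate block or a left-out library are not given here. Those counts therefore cannot tell a change in the subunit genes from a change in the calls over all genes. Leaving out 1 library gave 0 to 1 called at each of days 1, 3, 7, 21 and 60, 0 to 7 on day 90, 0 to 4 late against early, and 0 to 0 among stroke times. The 7 on day 90 came without either day 3 library, the 4 without day 3 replicate 2. The 0 came without sham replicate 2 at each of the 6 times, without sham replicate 1 on days 1 and 60, without day 1 replicate 1 on day 1, without day 60 replicate 2 on day 60 and without either day 90 library on day 90. Without sham replicate 1 the day 90 count was 1. The cause was not tested. Of 143 alternatives for Cox6a2, 16 lost the call, as did 8 of 24 for Atp5l and 3 of 24 for Ndufa3, and 0 changed direction. Upper-quartile scaling raised the median of all genes by 0.13, 0.15, 0.22, 0.10 and 0.20 on days 3, 7, 21, 60 and 90. Of 35 complex medians, leaving out sham replicate 1 changed the sign of 10, sham replicate 2 that of 6, with shifts of up to 1.20, and length-trend offsets that of 9.

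Replicate numbers are not stated to pair libraries. Deviations from group means of same-numbered libraries correlated at 0.0710 to 0.677 over 21 pairs of groups, 20 of them over 0.1. With a replicate block 1 subunit gene was called at each of days 1, 3, 7, 21 and 60, 3 on day 90, and 0 in the other comparisons.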
